A study of Macaca mulatta with 51 samples.

Results

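The genes of the G1 phase described here are 10: the cyclins CCND1, CCND2, CCND3 and CCNE1, the kinases CDK4, CDK6 and CDK2, and the inhibitors CDKN1A, CDKN1B and CDKN2C. They were taken by symbol from the deposited count table, where each has a single entry among 16033 genes. The expression of each was followed in subcutaneous adipose tissue (AT) and gastrocnemius skeletal muscle (SM) of rhesus macaques before FGF21 treatment, at its end and after a washout.

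In G1 a cell either commits to copying its DNA or leaves the cycle. The D-type cyclins activate CDK4 and CDK6, cyclin E activates CDK2, and both kinase activities phosphorylate the retinoblastoma protein, which frees E2F factors to switch on S phase genes. The INK4 inhibitor p18, encoded by CDKN2C, binds CDK4 and CDK6, while p21 (CDKN1A) and p27 (CDKN1B) bind cyclin and CDK complexes and act mainly on CDK2. Most cells of adult fat and muscle are not dividing: mature adipocytes and muscle fibres have left the cycle, and new cells arise from progenitors. Several of these genes are also used outside the cycle, as in adipocyte differentiation, where cyclin D3, CDK4, CDK6 and p18 have known roles.

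All samples came from 10 obese, non-diabetic macaques made obese by a high-fat, high-sucrose diet, males and ovariectomized females 11 to 22 years of age. The pre-treatment sample of each tissue preceded FGF21, the post-treatment sample was taken after 12 weeks of it, and the washout sample 16 weeks after it stopped. The authors reported that the animals lost weight over the treatment and gained it back over the washout. There were no animals without FGF21. An effect of FGF21, one of the weight change and one of elapsed time therefore cannot be told apart. In AT, 10 animals gave 10 libraries pre-treatment, 9 post-treatment and 8 at washout; in SM, 8 animals gave 6, 8 and 7. Animal 19832 had an AT library only pre-treatment and animal 20456 had none at washout. Repeat biopsies of 1 animal were paired in every test.

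Libraries held 14455195 to 23940980 counted reads. The 10 genes had between 20 and 9370 reads in every library, and all 10 passed the filter on low counts in both tissues (0.5 CPM or more in 10% or more of a tissue's libraries). Levels are read counts scaled to the size of the library (CPM) and TMM-normalized within a tissue. They compare 1 gene between libraries, not 1 gene with another, since gene lengths were not used. The libraries matched their labelled tissue: the 5 measured adipocyte markers summed to a median of 28151 CPM in AT and 153 CPM in SM pre-treatment, and the 8 muscle fibre markers to 103 CPM in AT and 189650 CPM in SM. In bulk tissue, fewer cells of a type and less RNA per cell cannot be told apart. A gene was called differentially expressed (DE) where edgeR's quasi-likelihood test gave an adjusted p under 0.05 and the log2 fold change exceeded 0.26 in size. Library identifiers came in 3 runs of numbers, here named the first, middle and last series, whose meaning is unknown.

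To ask what changed over the treatment period, AT at the post-treatment time point was compared to pre-treatment. CDKN2C, the inhibitor of CDK4 and CDK6, fell to 0.514 of its earlier level, and CCND1, cyclin D1, fell to 0.756. These 2 of the 10 genes were DE and the other 8 were not, where 15.5% of all genes tested were DE (6.98% higher and 8.49% lower). The median log2 fold change of the 10 was -0.17, beside 0.03 over all genes.

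CDKN2C (ENSG00000123080) ranged from 146 to 236 CPM pre-treatment, with a median of 206 CPM (n = 10). At the post-treatment time point it ranged from 59.8 to 177 CPM, with a median of 105 CPM (n = 9). The level was lower in 9 of 9 animals, and 7 of the 9 post-treatment libraries lay below every pre-treatment library. The mean went from 198 ± 27.5 CPM (SD) to 105 ± 41.3 CPM, and the fitted log2 fold change was -0.96 (SE 0.19, 95% interval -1.35 to -0.57, adjusted p = 0.00455 in edgeR's quasi-likelihood test). The 2 post-treatment libraries within the earlier range were those of animals 20456, at 177 CPM, and 23004, at 161 CPM, which are also the 2 animals with both libraries in the middle series. Their log2 changes were -0.26 and -0.39. Of the 6 animals whose libraries were both in the last series, 0 were higher, and their mean change was -1.11.

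CCND1 (ENSG00000110092), which couples growth factor signals to CDK4 and CDK6, differed more between animals than between time points. It ranged from 43.5 to 284 CPM pre-treatment (median 89.8 CPM) and from 30.6 to 168 CPM post-treatment (median 93.2 CPM). Animal 20261 held the highest level and animal 26292 the lowest at both time points, so that the groups overlapped almost entirely and the change shows only within animals. It was lower in 8 of 9 animals, with animal 21189 the exception at 87.8 CPM before and 97.6 CPM after. The log2 fold change was -0.40 (SE 0.12, adjusted p = 0.0297 in edgeR's quasi-likelihood test). The call was lost when any of animals 20261, 20275, 20456, 22130 or 26292 was left out (adjusted p up to 0.0793), and without animal as a term it had an adjusted p of 0.528.

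CDK4 (ENSG00000135446), the partner of the D-type cyclins that p18 inhibits, stood at 66.6 to 99.6 CPM pre-treatment (median 81.7 CPM) and 82.5 to 116 CPM post-treatment (median 98.8 CPM). It was higher in 8 of 9 animals and 4 of the 9 post-treatment libraries lay above every pre-treatment library, those of animals 20275, 21189, 24849 and 26292. The log2 fold change of 0.2597 (SE 0.08, adjusted p = 0.0355 in edgeR's quasi-likelihood test) lay just under the limit on the fold change, so CDK4 was not DE. It was DE without a limit on the fold change, with library size alone as the normalization, without the filter on low counts and without animal in the model. The same held when animal 20261, 20456, 21866 or 23004 was left out. In the last series 6 of 6 animals were higher, with a mean of 0.37, and in the middle series the changes of animals 20456 and 23004 were 0.13 and -0.08.

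**Figure D1:**
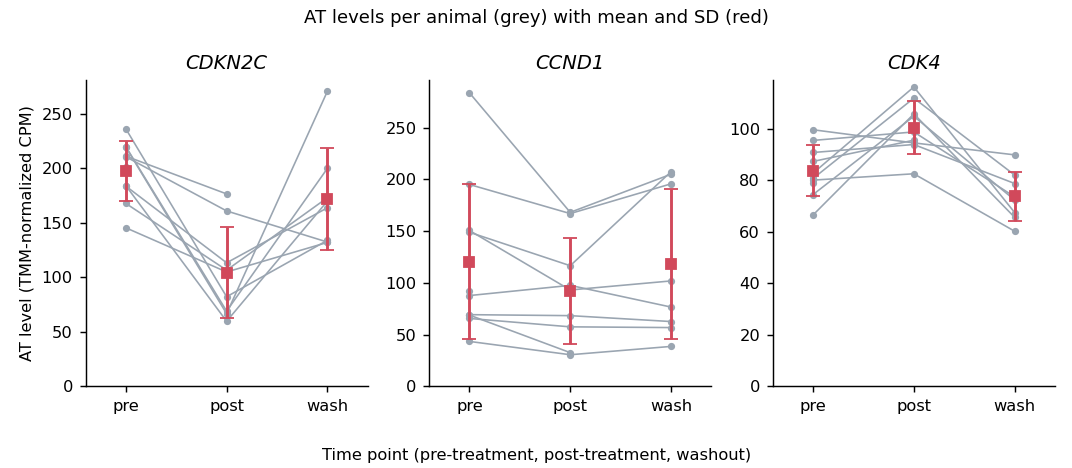
Levels of CDKN2C, CCND1 and CDK4 in AT, in TMM-normalized CPM from 0, before treatment (pre), after it (post) and at washout (wash). Grey points and lines are single animals and red squares with bars are the mean and SD of 10, 9 and 8 libraries. CDKN2C was lower post-treatment in 9 of 9 animals, CCND1 kept the spread between animals, and CDK4 was lower at washout than post-treatment in 8 of 8 animals.

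The other cyclins and kinases were not DE post-treatment. CCND3 (ENSG00000112576), cyclin D3, was at 55.2 ± 5.74 CPM before and 48.9 ± 4.92 CPM after (log2 fold change -0.20, 95% interval -0.36 to -0.03). CCND2 (ENSG00000118971), cyclin D2, was at 52.2 ± 10.8 and 48.7 ± 11.9 CPM, lower in 6 of 9 animals. CDK6 (ENSG00000105810), the second kinase of the D-type cyclins, was at 76.9 ± 21.1 and 62.1 ± 12.3 CPM and lower in 8 of 9 animals (log2 fold change -0.29, adjusted p = 0.118 in edgeR's quasi-likelihood test). It was DE only when the washout libraries were left out of the fit (adjusted p = 0.0494).

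CCNE1 (ENSG00000105173), cyclin E1, and its kinase CDK2 (ENSG00000123374) gave fold changes of opposite sign that were not DE. CCNE1, the gene with the fewest reads, was at a median of 5.67 CPM before and 4.76 CPM after, with a log2 fold change of -0.48 (95% interval -0.88 to -0.07, adjusted p = 0.0924 in edgeR's quasi-likelihood test). Its largest difference, 14.9 against 4.76 CPM, was in animal 22130. CDK2 was at 22.9 ± 2.65 CPM before and 25.6 ± 3.89 CPM after (log2 fold change 0.16, 95% interval -0.04 to 0.36).

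Neither CIP/KIP inhibitor was DE post-treatment. CDKN1B (ENSG00000111276), which encodes p27 and is regulated largely at the protein level, was at 51.2 ± 10.2 and 56.2 ± 11.03 CPM and higher in 5 of 9 animals. CDKN1A (ENSG00000124762), the p53 target p21, spread from 17.8 to 83.0 CPM before (median 43.4 CPM) and from 26.3 to 157 CPM after (median 50.3 CPM). Its within-animal log2 changes ran from -0.79 in animal 20456 to 2.40 in animal 20275, and the log2 fold change of 0.38 had an SE of 0.30, above that of each of the other 9.

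After treatment stopped, several of these levels moved again. Between post-treatment and washout, CDKN2C, CCND2 and CDK2 rose in AT and CDK4 fell, which made 4 of the 10 genes DE, where 35.4% of all genes tested were DE (17.6% higher and 17.8% lower). Compared to pre-treatment, AT at washout held more CCND2, CDK2 and CDKN1B and less CCND3 and CDK6, 5 of the 10, where 20.5% of all genes were DE (12.5% higher and 7.96% lower). The 3 AT comparisons share libraries and are not independent of each other.

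CDKN2C ranged from 132 to 271 CPM at washout, with a median of 167 CPM (n = 8). It was higher than post-treatment in 7 of 8 animals, with animal 23004 the exception (161 CPM post-treatment, 132 CPM at washout). The rise was 0.81 on the log2 scale (SE 0.20, adjusted p = 0.00373 in edgeR's quasi-likelihood test). Against pre-treatment the log2 fold change was -0.15, with an interval of -0.55 to 0.25, and animal 24849, at 271 CPM, stood above all pre-treatment libraries.

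CDK4 went the other way, to 60.3 to 89.9 CPM at washout with a median of 73.0 CPM. In 8 of 8 animals it lay under the post-treatment level, and 7 of the 8 washout libraries lay below every post-treatment library; only animal 23004, at 89.9 CPM, did not. On the log2 scale the change was -0.45 (SE 0.08, adjusted p = 4.67e-04 in edgeR's quasi-likelihood test). Against pre-treatment CDK4 was lower in 7 of 8 animals, and the log2 fold change of -0.20 had an adjusted p of 0.106.

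The ratio of CDKN2C to CDK4 reads within a library does not depend on how libraries are scaled. This pair was chosen after the values were seen. The mean ratio was 2.39 pre-treatment, 1.07 post-treatment and 2.38 at washout. It was lower post-treatment in 9 of 9 animals, by a mean of 1.26 on the log2 scale (SD 0.79), and higher at washout than post-treatment in 7 of 8. As the ratio carries no correction for gene length, only its change between libraries can be read.

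CCND2, cyclin D2, stood apart at washout. It ranged from 53.02 to 119 CPM (median 78.7 CPM), against 32.1 to 75.5 CPM post-treatment (median 46.5 CPM) and 36.1 to 68.0 CPM pre-treatment (median 50.7 CPM). Of the 8 washout libraries, 6 lay above every pre-treatment library and 5 above every post-treatment library. Against post-treatment its log2 fold change was 0.67 (SE 0.15, adjusted p = 0.00193 in edgeR's quasi-likelihood test) and against pre-treatment 0.52 (SE 0.15, adjusted p = 0.0159). The second call was lost without animal 20261 (36.1 CPM pre-treatment, 87.7 CPM at washout), at an adjusted p of 0.0767.

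CDK2, the kinase of cyclin E, ranged from 18.4 to 28.0 CPM pre-treatment (median 22.7 CPM), from 20.6 to 30.6 CPM post-treatment (median 24.9 CPM) and from 27.3 to 36.7 CPM at washout (median 31.5 CPM). At washout 7 of 8 libraries stood above all pre-treatment libraries, and 8 of 8 animals were higher than before treatment. Relative to pre-treatment the log2 fold change was 0.45 (SE 0.10, adjusted p = 0.00271 in edgeR's quasi-likelihood test) and against post-treatment 0.29 (SE 0.10, adjusted p = 0.0274). The second was not DE when only those 2 time points were fitted (adjusted p = 0.132), nor without animal 20261, 21189, 23004 or 26292.

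CDK6 was lower at washout than pre-treatment in 8 of 8 animals. It ranged from 43.5 to 109 CPM pre-treatment (median 73.6 CPM), from 44.2 to 81.0 CPM post-treatment (median 63.5 CPM) and from 39.2 to 79.6 CPM at washout (median 51.8 CPM), and the groups overlapped. The log2 fold change against pre-treatment was -0.51 (SE 0.14, adjusted p = 0.0105 in edgeR's quasi-likelihood test). The smallest drop, of 0.01 on the log2 scale, was in animal 21189, which had the lowest pre-treatment level, and the largest, from 109 to 45.9 CPM, was in animal 20275.

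CCND3 was at 45.3 ± 7.62 CPM at washout and lower than pre-treatment in 7 of 8 animals (log2 fold change -0.31, SE 0.08, adjusted p = 0.0104 in edgeR's quasi-likelihood test). Of its 8 washout libraries, 5 lay below every pre-treatment library. The call was lost without animal 26292 (adjusted p = 0.0525) and with library size alone as the normalization (adjusted p = 0.0706). CDKN1B was at 63.4 ± 7.83 CPM and higher than pre-treatment in 7 of 8 animals (log2 fold change 0.34, SE 0.11, adjusted p = 0.0338), but was not DE without animal in the model (adjusted p = 0.0739) or when any 1 of 6 animals was left out.

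**Figure D2:**
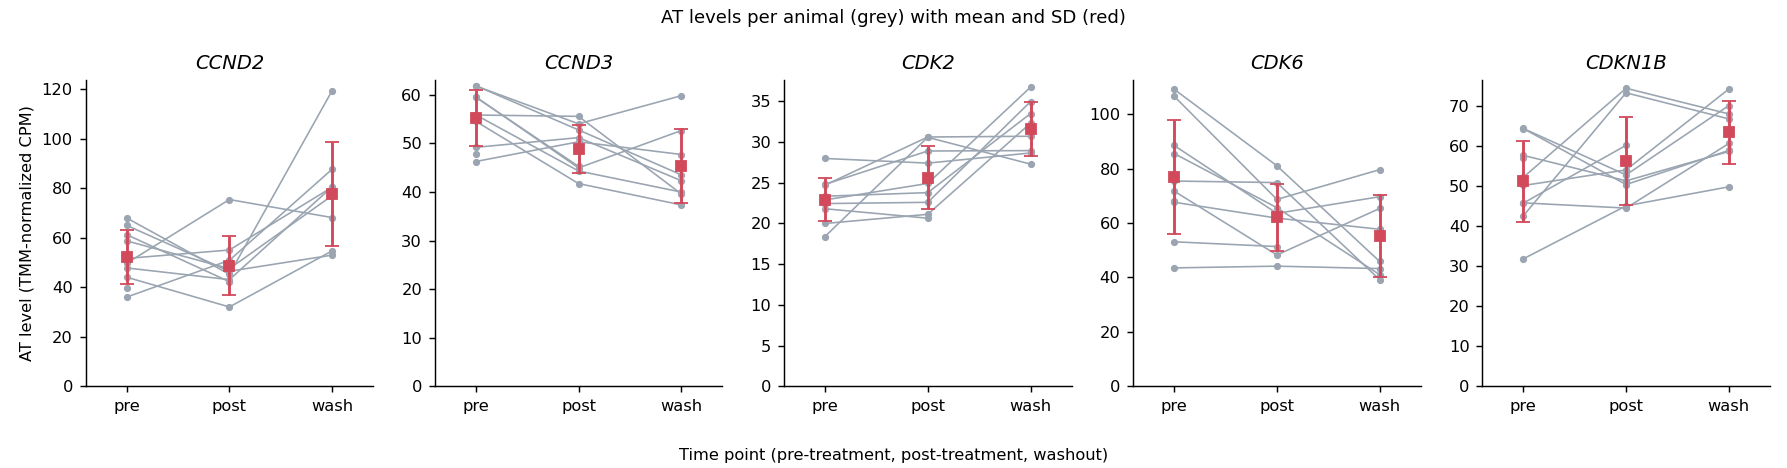
Levels of CCND2, CCND3, CDK2, CDK6 and CDKN1B in AT, in TMM-normalized CPM from 0, before treatment (pre), after it (post) and at washout (wash). Grey points and lines are single animals and red squares with bars are the mean and SD. CDK2 was higher and CDK6 lower at washout than pre-treatment in 8 of 8 animals, and the washout level of CCND2 in animal 24849, at 119 CPM, was the highest of its group.

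Cyclin E1 and p21 were not DE in either washout comparison. CCNE1 was at a median of 6.44 CPM at washout, and its log2 fold change against pre-treatment was 0.02, with an interval of -0.40 to 0.43. Against post-treatment it was 0.49 (interval 0.06 to 0.92, higher in 5 of 8 animals, adjusted p = 0.0648 in edgeR's quasi-likelihood test), and it was called there with DESeq2, with library size alone and without animal 20261, 21866 or 23004. CDKN1A was lower at washout than post-treatment in 7 of 8 animals (log2 fold change -0.68, interval -1.34 to -0.03, adjusted p = 0.0908 in edgeR's quasi-likelihood test). The 1 animal that was higher was 23004, at 52.1 CPM post-treatment and 109 CPM at washout, and without it CDKN1A was DE (adjusted p = 0.0249). CCND1 was at 118 ± 72.4 CPM, with a log2 fold change of 0.21 against post-treatment (interval -0.05 to 0.46).

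Within the last series, the 3 animals with both libraries there gave the same sign as the whole group for each gene called at washout, though for CCND2 against post-treatment 2 of 3 were higher (mean log2 change 0.44) and for CDKN1B against pre-treatment 2 of 3. The means there were 0.64 for CDKN2C and -0.38 for CDK4 against post-treatment, and 0.47 for CDK2 and -0.43 for CDK6 against pre-treatment.

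The same pathway was followed through genes around the 10. Of 12 other G1 cyclins, kinases and inhibitors, 10 were tested in AT, and 3 of them fell post-treatment while 0 rose. Over all genes tested, 15.5% were DE there (6.98% higher and 8.49% lower). CDKN2B, the INK4 inhibitor p15, was at 46.9 ± 11.8 CPM before and fell to 25.4 ± 7.36 CPM (-0.91 ± 0.20 SE as a log2 fold change, adjusted p = 0.00856 in edgeR's quasi-likelihood test). At washout it was at 28.2 ± 11.4 CPM, with a log2 fold change of -0.83 against pre-treatment (adjusted p = 0.00737). CCNH, the cyclin of the kinase that activates CDKs, had a log2 fold change of -0.39, and CDC25A, a phosphatase that activates CDK2, of -0.45. The median of the 10 was -0.18.

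Of 16 retinoblastoma and E2F family genes tested, 0 rose and 2 fell post-treatment, where 15.5% of all genes tested were DE. The median log2 fold change of the 16 was 0.13, with 10 above 0 and 6 below. The 2 were E2F1, which was at 9.23 ± 1.96 CPM and then at 5.29 ± 2.10 CPM (-0.88 ± 0.19 SE as a log2 fold change, adjusted p = 0.00769 in edgeR's quasi-likelihood test), and its partner TFDP1 (-0.28). The pocket protein genes RBL1 and RBL2 fell at washout against both earlier time points, RBL2 with log2 fold changes of -0.52 and -0.29. Of 12 genes for ubiquitin ligases of G1 proteins, SKP2, whose product marks p27 for destruction, was the 1 that fell post-treatment, where its mean of 29.6 ± 9.52 CPM became 17.7 ± 4.47 CPM (-0.70 ± 0.16 SE as a log2 fold change, adjusted p = 0.0111), and it was back at 32.4 ± 7.06 CPM at washout. CUL4B, at -0.24 post-treatment, was not DE there and fell at washout against pre-treatment (-0.34), and FBXO4, at 0.29 post-treatment, was not DE in any of the 3 comparisons.

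Genes downstream of the pathway or beside it were counted in the same way, and such counts stand against the 15.5% of all genes that were DE post-treatment and the 35.4% at washout against post-treatment. Of 22 S phase and mitosis genes, 0 were DE post-treatment, and their median log2 fold change was 0.12, with CCNB1 at -0.42 and PCNA at 0.38; at washout against post-treatment 1 rose and 3 fell, among the latter MCM6 (-0.38). Of 9 FOXO target genes of growth arrest, 3 rose post-treatment (PIK3IP1, CCNG2 and SESN3, with log2 fold changes of 0.51, 0.37 and 0.43), and at washout against post-treatment 8 fell and 1 rose. Of 17 p53 target genes other than CDKN1A, TP53INP1 rose post-treatment (0.46), SESN2 fell (-0.44) and FDXR, at -0.28, was not DE.

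Cell type markers moved in AT over the same time points. The 12 macrophage markers summed to a median of 1637 CPM pre-treatment (range 703 to 3037 CPM), 3158 CPM post-treatment (1156 to 7410 CPM) and 839 CPM at washout (472 to 3330 CPM), and 12 of 12 had a positive log2 fold change post-treatment (2 DE) and a negative one at washout against post-treatment (12 DE). The 5 measured adipocyte markers had medians of 28151, 23957 and 23751 CPM at the 3 time points, and 5 of 5 had a negative log2 fold change post-treatment (3 DE). The 9 progenitor and fibroblast markers had medians of 19444, 28498 and 17663 CPM, with 8 of 9 positive post-treatment (2 DE) and 8 of 9 negative at washout against post-treatment (3 DE). From pre- to post-treatment, the means of the collagen genes COL1A1 and COL3A1 went from 4011 and 7230 CPM to 7660 and 10900 CPM. DPP4 went from 59.1 to 105 CPM. PDGFRA, CD34 and PI16 went from 83.9, 642 and 717 CPM to 87.6, 651 and 761 CPM. The erythroid sum was at 2677, 852 and 5108 CPM, with HBA1 and HBA2 at 0. Their part in the changes of the 10 genes was not tested.

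For CDKN1A the macrophage values can be read library by library. In AT post-treatment, the library highest in CDKN1A, that of animal 20275 at 157 CPM, also had the highest macrophage sum, 7410 CPM. At washout the same held for animal 23004, at 109 CPM and 3330 CPM. Pre-treatment the highest CDKN1A, 83.0 CPM in animal 23004, came with the second highest macrophage sum, 3025 CPM, and the lowest, 17.8 CPM in animal 22130, with the lowest, 703 CPM.

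In SM none of the 10 genes was DE between any 2 time points, where 0% of all genes were DE post-treatment, 0.19% at washout against post-treatment (0.182% higher and 0.00793% lower) and 0.0634% at washout against pre-treatment. At an unadjusted p under 0.05 there were 0, 2 and 1 of the 10 in the 3 comparisons. Over all 12617 genes tested there were 410, 2181 and 1691. In the alternatives, limma and DESeq2 among them, 0 of the 10 were called. The share of all genes called there reached 5.34% with limma, 2.85% with DESeq2 and 21% with the identifier series as a covariate. The intervals were wide for CCND2, CDK6 and CDKN1A: that of the post-treatment log2 fold change was -1.03 to 1.71 for CCND2, -0.42 to 1.41 for CDK6 and -1.51 to 1.24 for CDKN1A. For CDKN2C, which fell in AT, it was -0.05 to 0.62 in SM, with levels of 18.1 ± 3.12 CPM before and 21.7 ± 4.38 CPM after.

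By adjusted p, CDK2 and CDK4 at washout against post-treatment came nearest to the threshold in SM. CDK2 was lower at washout than post-treatment in 7 of 7 animals, at 14.1 ± 3.30 CPM post-treatment and 10.5 ± 2.30 CPM at washout (log2 fold change -0.44, adjusted p = 0.147 in edgeR's quasi-likelihood test). CDK4 was lower in 6 of 7 animals (log2 fold change -0.30, adjusted p = 0.279). CCNE1, at -0.44 in that comparison, was lower in 7 of 7 animals (adjusted p = 0.322), and CDK6, the other kinase, had a log2 fold change of -0.01. In the comparison of washout with pre-treatment, CDKN1A was at 41.0 ± 24.6 CPM pre-treatment and 17.7 ± 9.65 CPM at washout and lower in 5 of 6 animals (log2 fold change -1.31, adjusted p = 0.357).

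**Figure D3:**
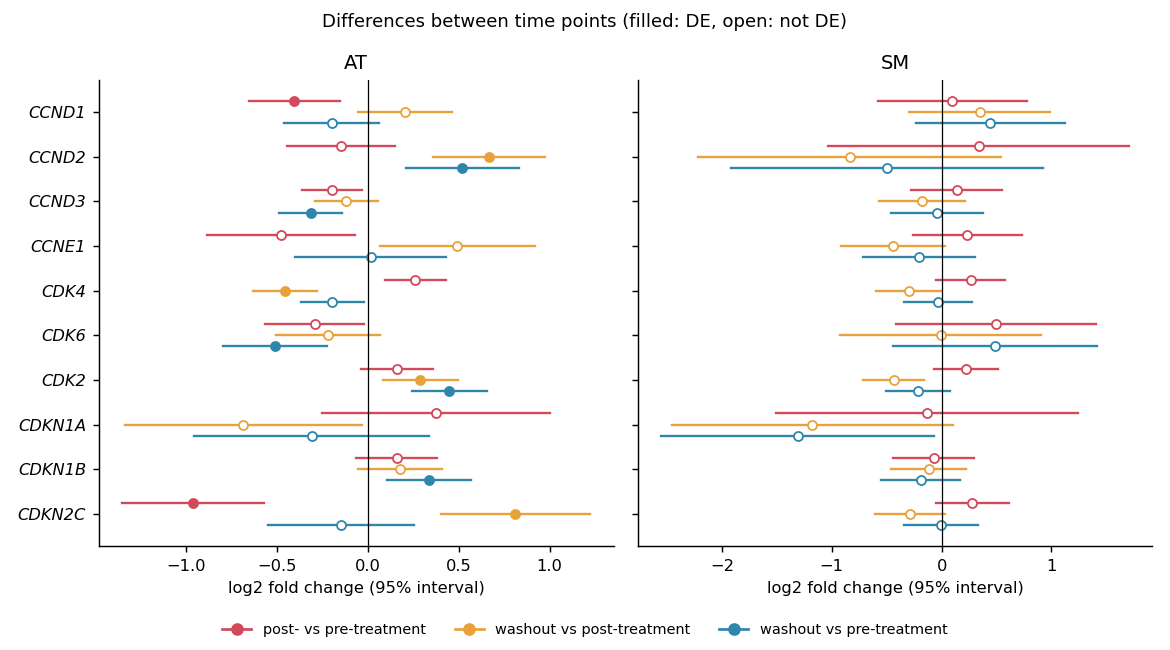
Log2 fold changes of the 10 genes with 95% intervals in AT (left) and SM (right), on axes of different range, for the 3 comparisons of time points. Filled points are DE and open points are not. In AT the DE points lie between -0.96 (CDKN2C, post-treatment) and 0.81 (CDKN2C, washout against post-treatment), and in SM every point is open.

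Post-treatment SM libraries fell far apart in CCND1, CCND2 and CDK6. CCND2 was at 16.7 CPM in animal 20275, 36.0 CPM in animal 21189, 33.5 CPM in animal 21866 and 21.8 CPM in animal 24849. In animals 19832, 20456, 22130 and 23004 it was at 1.51, 2.07, 2.35 and 2.80 CPM. Thus 4 of the 8 post-treatment libraries lay above and 4 below all 6 pre-treatment libraries, which ranged from 3.39 to 13.5 CPM. CCND1 (12.4 to 20.6 CPM against 3.93 to 6.35 CPM) and CDK6 (11.5 to 26.0 CPM against 3.17 to 5.49 CPM) split the same animals. CCND3 did not: it was at 9.42 to 19.8 CPM in the first 4 animals and at 6.55 to 10.01 CPM in the other 4.

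The same 4 libraries differed in tissue markers. The summed progenitor and fibroblast markers were at 7300, 17057, 14248 and 4826 CPM in animals 20275, 21189, 21866 and 24849, and at 296 to 613 CPM in the other 4. Pre-treatment SM libraries ranged from 505 to 4989 CPM, so the library of animal 24849 lay within their range. The muscle fibre markers were at 119296, 51242, 94784 and 99647 CPM, below the lowest pre-treatment library at 138009 CPM, and at 234137 to 265127 CPM in the other 4. Of the 4, animals 21189, 21866 and 24849 had post-treatment libraries in the last series, and animal 20275, like the other 4, in the first. Without these 4 libraries, a choice made after the data were seen, 0 of the 10 genes were DE in SM, where up to 2.58% of all genes were. The log2 fold change of CCND2 post-treatment went from 0.34 to -1.55 (adjusted p = 0.174 in edgeR's quasi-likelihood test). They were the 4 SM libraries highest in CCND2, so its level post-treatment was bound to drop.

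**Figure D4:**
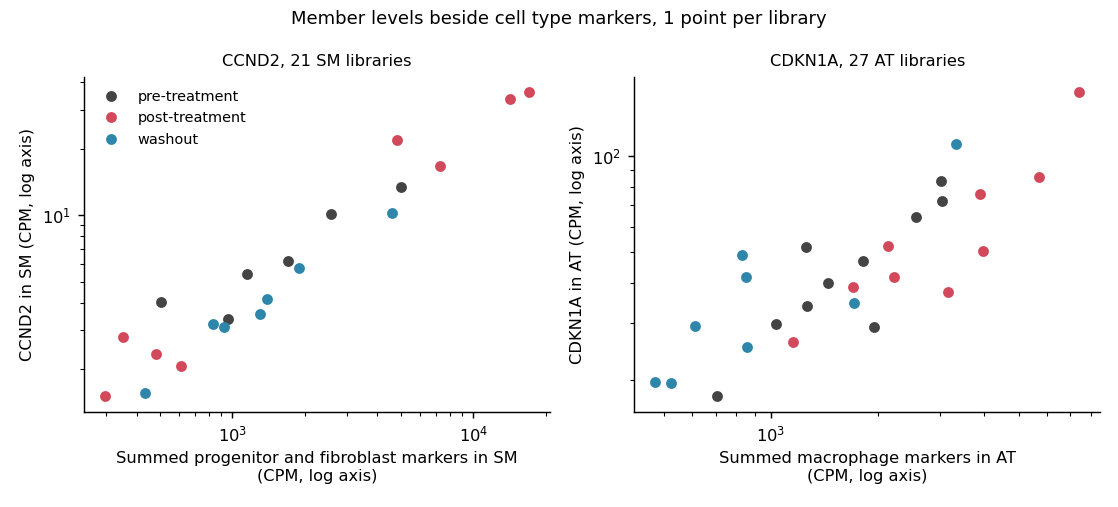
Levels of CCND2 in the 21 SM libraries against the summed progenitor and fibroblast markers (left) and of CDKN1A in the 27 AT libraries against the summed macrophage markers (right), all in CPM on log axes, with 1 point per library coloured by time point. The 4 SM libraries highest in CCND2 were post-treatment libraries at 4826 to 17057 CPM of those markers. The AT library highest in CDKN1A, at 157 CPM, had 7410 CPM of macrophage markers. Libraries of 1 animal are not independent.

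The change post-treatment was then compared between the tissues. For CDKN2C the change in AT minus that in SM was -1.29 on the log2 scale (SE 0.26, 95% interval -1.82 to -0.75, adjusted p = 0.0507 in edgeR's quasi-likelihood test), at the edge of the threshold. None of the 10 passed it, where 0.0487% of all genes did. At an unadjusted p under 0.05 there were 3 of the 10, CDKN2C, CCNE1 and CCND3, each with AT minus SM below 0. Over all genes, 1306 of 12322 tested had such a p. CDKN2C passed with DESeq2 (adjusted p = 0.00421), with at least 10 counts required in every library (0.0420), without animal in the model (0.0492), without animal 20456 (0.0350) and without the 4 SM libraries named above (-1.33, adjusted p = 0.00954). In that last fit 16.1% of all genes tested passed. CCND2 was among them, with AT minus SM at 1.40 (adjusted p = 0.0294), where it was -0.48 with all libraries. The 4 libraries left out were the 4 SM libraries highest in CCND2, so this pass cannot be read apart from their removal. CDKN2C did not pass with limma (adjusted p = 0.0511) or with library size alone in edgeR (0.0691). Nor did it pass when any animal other than 20456 was left out, at an adjusted p of up to 0.189 (without animal 20275).

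Before treatment, the 2 tissues held these genes at different levels. In the 6 animals with both libraries, 7 of the 10 genes were DE, where 72.9% of all genes were DE (38.2% higher and 34.7% lower in AT). The D-type cyclins, CDK6 and CDKN2C were higher in AT, CDKN1B was higher in SM, and CCNE1, CDK2 and CDKN1A were not DE. Levels in this comparison were normalized over both tissues and so differ from those above.

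CCND1 was at 90.3 ± 36.8 CPM in AT and 11.6 ± 2.08 CPM in SM, 7.40-fold higher in AT (log2 difference 2.89, SE 0.19, adjusted p = 1.69e-06 in edgeR's quasi-likelihood test). CDK6 was 6.60-fold higher in AT (55.7 ± 15.9 against 8.38 ± 2.47 CPM) and CDKN2C 6.42-fold (155 ± 13.0 against 24.4 ± 4.33 CPM). CCND2 and CCND3 were 4.63-fold and 3.04-fold higher. For these 5 genes the tissues did not overlap. CDK4 differed less, at 60.5 ± 9.91 and 45.5 ± 12.3 CPM (1.35-fold), with overlapping levels and a call that was lost without animal 19832, 21189 or 23004.

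CDKN1B was the 1 gene of the 10 called higher in SM, at 102 ± 38.2 CPM against 39.8 ± 8.50 CPM in AT, a 2.50-fold difference with no overlap (log2 difference AT minus SM -1.32, adjusted p = 4.53e-04 in edgeR's quasi-likelihood test). The interval of the log2 difference was -0.35 to 0.52 for CCNE1, -0.43 to 0.62 for CDK2 and -1.56 to 0.28 for CDKN1A. With library size alone as the normalization the median log2 difference of all genes moved from 0.08 to 0.93; the 6 genes higher in AT were called still, CDKN1B was not, and CCNE1 and CDK2 were called.

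**Figure D5:**
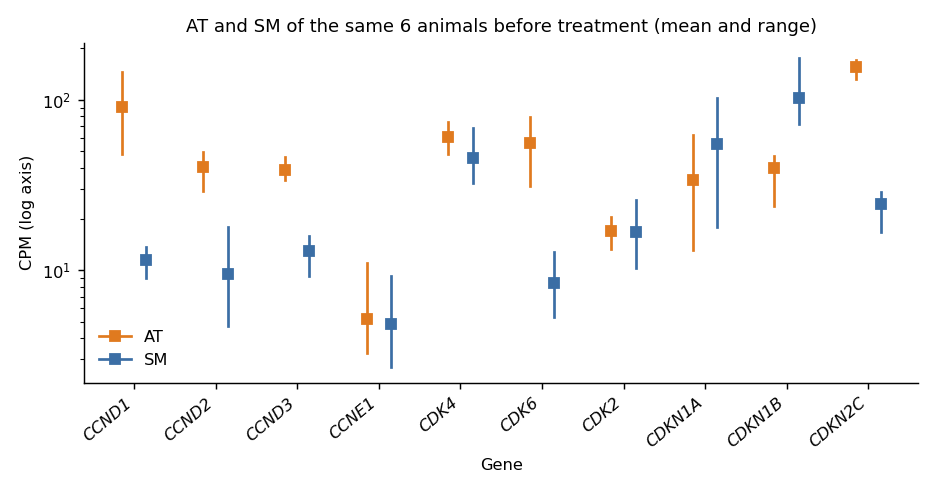
Levels of the 10 genes in AT (orange) and SM (blue) of the same 6 animals before treatment, in CPM normalized over both tissues, on a log axis. Squares are means and lines run from the lowest to the highest library. The lines of CCND1, CCND2, CCND3, CDK6, CDKN1B and CDKN2C do not overlap between the tissues, and CDKN1B is the 1 of these that is higher in SM.

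As a description of the pattern of the genes called post-treatment, the genes most like each were found by Pearson's r of log2 CPM over the 27 AT libraries, which share animals. Nearest to CDKN2C were SGK2 (r = 0.938), AKR1C1 (r = 0.921) and DGAT2 (r = 0.917), the last an enzyme of the final step of triglyceride synthesis. Nearest to CCND1 were NUP210, SCAMP4 and IRX5, at lower values of r from 0.716 to 0.761. For CDKN1A, added after its values were seen, they were PRKCD, FERMT3 and EGR2, at r from 0.936 to 0.954; FERMT3 encodes an integrin activator of blood cells.

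On the RefSeq assembly T2T-MMU8v2.0, which is not the build of the counts, the spans of 3 of the 10 genes overlap another protein-coding gene: CDKN2C with FAF1, CCND1 with LTO1 and CDK2 with PMEL. Whether the counting used strand is not given in the sources used here, so reads of such pairs could be shared. In AT the log2 fold changes of PMEL were 0.36 post-treatment, -0.48 at washout against post-treatment and -0.11 against pre-treatment, beside 0.16, 0.29 and 0.45 for CDK2; whether reads were shared was not tested. FAF1 and LTO1 were not analysed here.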

How the data were processed

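Stranded mRNA libraries of AT and SM punch biopsies were sequenced as paired reads. STAR was the aligner and MacaM the genome the authors used. The deposited values are read counts per gene, without normalization, in whole numbers. Of 51 labelled samples, 3 SM samples were not analysed here because no counts were matched to them, which left 48 libraries. From 16103 entries, 70 repeats of a gene were dropped. Counts were filtered (0.5 CPM in 10% of the libraries of a tissue), TMM-normalized and fitted per tissue with time point and animal by the quasi-likelihood method of edgeR 4.0.16 in R 4.3.3, with two-sided p-values adjusted by Benjamini-Hochberg over every gene that passed the filter. The difference between tissues was tested as an interaction over genes passing the filter in both, with a separate term for each animal in each tissue. AT was tested against SM over the 12 pre-treatment libraries of 6 animals. Log2 CPM used a prior count of 2.

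The animal numbers pair the libraries: after removal of time point means, the median correlation of 25 same-animal pairs in AT was 0.352, where 217 pairs from different animals had -0.0354, and in SM 0.279 (19 pairs), where 127 other pairs had -0.0464. Each library is a separate biopsy, and animal was a term in the fits. The spread that remains is between biopsies, after steady differences between animals are taken out. At the reads counted per gene, that spread, not counting error, limits the precision: the biological coefficient of variation was 0.248 in AT and 0.356 in SM.

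The fits were also run on simulated counts. These were drawn without differences between animals and with the same spread for every gene, so they do not test the animal term. Alternatives were limma 3.58.1 voomWithQualityWeights, DESeq2 1.42.0, other normalizations, filters and fold limits, no animal in the model, 2 time points alone, the identifier series as a covariate, and each animal left out. Added after the data were seen were edgeR's earlier quasi-likelihood method and fits without 4 SM libraries. All 10 genes are named, and from each pathway list the 3 genes of smallest p post-treatment in AT. The 3 genes most like each member called there are named too. Outside the rule are RBL1, the genes most like CDKN1A and the single marker genes named. The members and lists were chosen with earlier results of these data known, and the marker lists were written from general knowledge. Figures were drawn with matplotlib 3.10.9 in Python 3.11.15.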

Additional observations from a re-analysis of the deposited data

Results flagged for a closer look

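Among 60 groups of libraries (10 genes, 2 tissues, 3 time points), 9 had a highest library whose gap to the next exceeded Dixon's 95% critical value. For normal values in independent groups, about 3 of 60 would do so. Levels were taken in CPM without a log, and the groups share libraries and animals, so that number is only a rough guide. For CCNE1 in AT this was animal 22130 pre-treatment, at 14.9 CPM (next 9.54 CPM), and again at washout, at 15.5 CPM (next 8.58 CPM), while its post-treatment library was at 4.76 CPM. Post-treatment, animal 26292 stood highest, at 7.85 CPM (next 5.10 CPM).

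For CDKN1A, the highest libraries were those of animal 20275 in AT post-treatment, at 157 CPM (next 85.9 CPM), of animal 23004 in AT at washout, at 109 CPM (next 49.1 CPM), and of animal 21189 in SM post-treatment, at 383 CPM (next 83.5 CPM). Each of these 3 libraries also had the highest summed macrophage markers of its group, at 7410, 3330 and 217 CPM. The SM library also had the highest progenitor and fibroblast sum of its group, 17057 CPM. In SM the macrophage sum and CDKN1A did not always go together. Post-treatment, animal 24849 had the second highest sum, 191 CPM, and the lowest CDKN1A, 10.3 CPM. At washout, animal 22130 had the highest sum, 349 CPM, with CDKN1A at 17.1 CPM. The part of those cells was not tested. In the same SM library of animal 21189, CDK4 was at 61.8 CPM (next 42.0 CPM), with the lowest muscle fibre marker sum of the SM libraries, 51242 CPM.

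CDKN1B in SM was highest in animal 19832, both pre-treatment, at 131 CPM (next 80.5 CPM), and at washout, at 98.5 CPM (next 66.1 CPM), and its post-treatment library was at 63.6 CPM, near the group's median of 62.8 CPM.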

How the results depend on the processing

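Of the calls in AT, those of CDKN2C (post-treatment, and washout against post-treatment), of CCND2 and CDK4 at washout against post-treatment, and of CDK2 and CDK6 at washout against pre-treatment held in all 11 alternative fits and without each animal. No called log2 fold change turned its sign in any alternative. The number of the 10 genes called, without each animal in turn, was 1 to 3 post-treatment (1 without 20275, 22130 or 26292), 3 to 5 at washout against post-treatment, 3 to 5 at washout against pre-treatment (3 without 20261 or 26292), 0 in the SM comparisons, 6 to 8 between the tissues and 0 to 1 for the difference between tissues in the post-treatment change. For that difference it was 1 with DESeq2, 1 with at least 10 counts in every library and 1 with no replicate block. It was 2 without the 4 SM post-treatment libraries low in muscle fibre markers. In that fit 1969 genes passed (16.1% of those tested), against 6 with all libraries, and the cause was not tested. Log2 changes within animals moved by at most 0.0274 with another prior count.

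Without the replicate block of animal, 2 of the 10 genes were called post-treatment in AT, 4 at washout against post-treatment and 4 against pre-treatment; CCND1 (log2 fold change -0.38) and CDKN1B lost their calls, CDK4 was called post-treatment, and no other call in AT changed. Over all genes, calls in AT post-treatment went from 2068 to 805 without animal 22130 and 998 without 20275. In SM at washout against pre-treatment, 8 genes were called, 674 with limma, 179 with DESeq2, 1355 with the identifier series as a covariate and 322 without the 4 SM libraries; against post-treatment 24 were called, 359 with DESeq2, 2650 with the series and 224 with no block. With library size alone the share of AT calls that were higher went from 49.7% to 63.0% at washout against post-treatment and from 61.1% to 79.7% against pre-treatment, and the median of all genes moved by over 0.1 in the latter, from -0.02 to 0.08, where CCND3 lost its call.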

Other observations

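Within a library, the ratio of 2 genes does not depend on the scaling between libraries. The pairs given here were chosen after their values were seen, so they are a description with no test, and the ratios carry no correction for gene length. In AT, the ratio of CDK2 to CDK6 reads, the kinases of cyclin E and of the D-type cyclins, had a mean of 0.323 pre-treatment and 0.611 at washout. It was higher in 8 of 8 animals, by a mean of 1.01 on the log2 scale (SD 0.55). The ratio of CCND2 to CCND3 reads, both D-type cyclins, was higher at washout than pre-treatment in 8 of 8 animals too, by a mean of 0.85 on the log2 scale (SD 0.47). In SM, the ratio of CDKN2C to CDK4 reads had means of 0.554 pre-treatment, 0.566 post-treatment and 0.545 at washout, with 4 of 6 animals higher post-treatment than before.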
